A study of Mus musculus with 2 samples.

Results

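The clustered protocadherin genes of the mouse were examined in a CTCF chromatin immunoprecipitation and sequencing (ChIP-seq) experiment on limb tissue of embryos at day 14.5. The members were the GENCODE M21 genes on chromosome 18 named Pcdha, Pcdhb or Pcdhg, and they numbered 58 of 55413 genes annotated on the main chromosomes. Pcdha had 14 members, Pcdhb 22 and Pcdhg 22, and 5 of the Pcdha and Pcdhg members were c-type isoforms (Pcdhac1, Pcdhac2, Pcdhgc3, Pcdhgc4 and Pcdhgc5). Pcdhg divides further into 12 Pcdhga, 7 Pcdhgb and 3 c-type members, one of which, Pcdhgb8, is annotated as a polymorphic pseudogene. The symbol Pcdha11 occurs at a pair of entries, which are told apart here by their starts at 37005203 and 37010712. RefSeq lists Pcdha10 at the first of them. The series holds 2 libraries of B6NCrl limb, replicate 1 and replicate 2, which form 1 group and which the labels trace to a single pool of pulverised limbs from embryos of both sexes. No genotype or treatment was compared, so the comparisons are among members, between members and other genes, and between the replicates.

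Clustered protocadherins are cell adhesion proteins that nerve cells display in different combinations, by which a cell distinguishes itself from its neighbours. Each member has its own promoter in front of its own large first exon, called the variable exon. In Pcdha and Pcdhg this exon is spliced to constant exons shared by the whole cluster, whereas Pcdhb genes are complete in a single exon. CTCF is a zinc finger protein that stops cohesin and so anchors chromatin loops. In mouse and human neural cells it is known to bind most protocadherin promoters at a shared sequence element and, in Pcdha, also inside variable exons, and to bind enhancers downstream of the clusters. Pcdhac2, Pcdhb1, Pcdhgc4 and Pcdhgc5 are known to lack the shared promoter element. The limb is not a tissue for which these genes are known, and expression was not measured here.

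The values are the authors' own signal for each peak, on the scale of its list, and their normalization and the read depth are unknown. Pooled signal comes from the list called optimal, which was derived from both libraries, and the replicate values come from the nearest summit within 100 bp in each replicate's full list. The 2 libraries share 1 tissue pool, so the spread between them may be technical, and no difference between members was put to a test. In a bulk sample, binding in fewer cells and weaker binding in each cell cannot be told apart. Of 49970 optimal peaks, 56 had their summit in the window of chromosome 18 (mm10) that holds the clusters and their flanks, with summits from 36739985 to 37984485. That is 4.31 per 100 kb, against 1.89 per 100 kb over the main chromosomes.

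CTCF peaks stood at the promoters of many members, and most often in Pcdhg. A member was counted as occupied where an optimal summit lay within 1 kb of one of its transcription start sites (TSS). The strongest such peak is called its promoter peak, also at Pcdha4 and Pcdha12, where its summit lay inside the variable exon. In all, 33 of 58 members were occupied (56.9%), against 33.3% of 21881 other protein-coding genes. By cluster, 19 of 22 Pcdhg members (86.4%), 6 of 14 Pcdha members (42.9%) and 8 of 22 Pcdhb members (36.4%) were occupied. At this setting the Pcdhb share lay near that of other genes and the Pcdha share somewhat above it, so the excess lay mainly in Pcdhg. Where only the first TSS of each gene counted, the Pcdhb share was again 8 of 22, against 25.98% of other genes. Within 500 bp it was also 8 of 22, against 26.8%, so the Pcdhb share was the higher one under both. Pcdha had 6 of 14 by the first TSS and 5 of 14 within 500 bp, where Pcdha4 no longer counted. Within Pcdhg, all 7 Pcdhgb members and 11 of 12 Pcdhga members were occupied. The excess over other genes depended on how strong a peak had to be: among the strongest 50% of optimal peaks, 6 of 58 members had one, against 17.2% of other genes, so members were then occupied less often. The excess also shrank with distance, since within 5 kb 37 of 58 members had a peak, against 52.0% of other genes. Both 6 of 14 in Pcdha and 11 of 22 in Pcdhb were below that share. All 33 promoter peaks had a summit in both full replicate lists, as did nearly all optimal peaks: 49305 of 49959 were found in replicate 1 and 49264 in replicate 2.

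The promoter peaks were mostly weak for CTCF sites. Their median pooled signal was 36.5, with quartiles of 29.1 and 45.6, against a median of 61.5 and quartiles of 31.2 and 145.1 at the promoters of 7295 other occupied genes. The median over all optimal peaks was 58.4. Peaks of 6 members exceeded that value: Pcdhac1, Pcdhgc3, Pcdhgb6, Pcdhgb7, Pcdhga12 and Pcdhb17. By cluster, the median was 40.1 in Pcdhg (range 24.9 to 116.4), 35.4 in Pcdha (18.6 to 141.6) and 26.5 in Pcdhb (17.5 to 64.0). The ranges of the clusters overlapped.

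**Figure D1:**
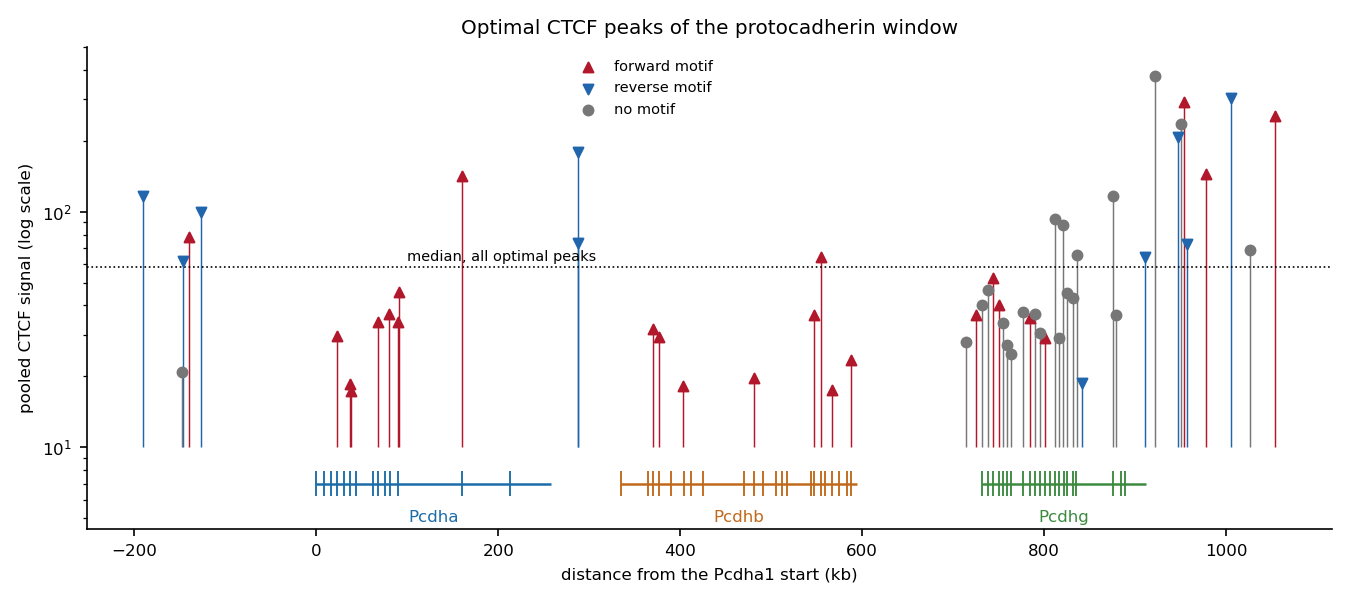
Pooled signal of the 56 optimal CTCF peaks (log axis) against distance from the Pcdha1 start in kb, with triangles up for a forward motif, triangles down for a reverse motif and grey circles for none; ticks under the plot mark member starts and the dotted line the median of all optimal peaks, 58.4. Peaks in the variable exon arrays are mostly below the line, with forward motifs or none, while the 9 peaks downstream of Pcdhg, at the right, all lie above it.

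The c-type isoforms held the highest promoter peaks of both Pcdha and Pcdhg, and also 3 of the members with none. These isoforms are the last variable exons of their clusters and are known to be expressed in neurons without the random choice that selects the other members. Pcdhac1 (chromosome 18, 37090013 to 37187657, plus strand) had 74.0 in replicate 1 and 67.2 in replicate 2 (70.6 ± 4.83, SD, n = 2), with a pooled signal of 141.6. Pcdhgc3 (37806364 to 37841873) had 53.1 and 59.2 (56.2 ± 4.33, SD, n = 2), with a pooled signal of 116.4. In both replicates the value of Pcdhac1 was above those of the other 32 occupied members, and that of Pcdhgc3 did not overlap with any other member except Pcdhgb7, whose replicate 1 value of 54.1 lay within the range of Pcdhgc3. Pcdhac2, Pcdhgc4 and Pcdhgc5 had no optimal peak. In the full pooled list of 300000 peaks, whose lower part is a fixed length rather than a set of called sites, the strongest summits within 1 kb of their TSSs had signals of 9.33 at Pcdhac2, 10.8 at Pcdhgc4 and 6.83 at Pcdhgc5.

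In Pcdha, 5 of the 12 members other than c-type were occupied, with pooled signals of 18.6 to 45.6, all below the median of all optimal peaks. Pcdha12 had 25.9 in replicate 1 and 18.1 in replicate 2, with a pooled signal of 45.6, at a summit inside the variable exon. Its summit upstream of the start codon had a pooled signal of 33.9. The Pcdha11 entry that starts at 37010712 had 18.7 and 17.5, with a pooled signal of 36.9. Pcdha9 had 9.38 and 22.3, with a pooled signal of 33.9, and its replicates differed by more than did those of its neighbours in the order. Among the weakest were Pcdha4, with 15.5 and 13.1 and a pooled signal of 29.7, and Pcdha6, with 8.99 and 9.79 and a pooled signal of 18.6. The Pcdha4 values too belong to a summit inside the variable exon, its only optimal one within 1 kb of a TSS. The range of Pcdha9 covered both values of this Pcdha11 entry and of Pcdha4, so the place of Pcdha9 in the order was not resolved. Pcdha12 was above this Pcdha11 entry in both replicates, though their ranges overlapped. The Pcdha11 entry was in turn above Pcdha4 in both replicates, and their ranges did not overlap. Pcdha1, Pcdha2, Pcdha3, Pcdha5, Pcdha7, Pcdha8, Pcdhac2 and the Pcdha11 entry that starts at 37005203 had no optimal peak. Pcdha1 had no summit within 1 kb in any of the full lists.

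Pcdhb held the weakest promoter peaks, with a single one above the median of all optimal peaks. Pcdhb17 (37484795 to 37489454) had 33.0 in replicate 1 and 30.8 in replicate 2 (31.9 ± 1.56, SD, n = 2), with a pooled signal of 64.0. Next came Pcdhb16 with 15.3 and 21.4 and a pooled signal of 36.5. Pcdhb3 had 15.6 and 14.7 with a pooled signal of 31.9. Both replicates of Pcdhb17 lay above both of every other occupied Pcdhb member. Pcdhb4 had 17.7 and 10.3 with a pooled signal of 29.4, and its range covered both values of Pcdhb3. The weakest were Pcdhb6, with 7.9 and 9.77 and a pooled signal of 18.3, and Pcdhb19, with 5.84 and 10.9 and a pooled signal of 17.5. The remaining occupied members were Pcdhb22 with a pooled signal of 23.6 and Pcdhb10 with 19.7. The members without an optimal peak were Pcdhb1, Pcdhb2, Pcdhb5, Pcdhb7, Pcdhb8, Pcdhb9, Pcdhb11, Pcdhb12, Pcdhb13, Pcdhb14, Pcdhb15, Pcdhb18, Pcdhb20 and Pcdhb21. Pcdhb1 was listed in replicate 1 alone, with a signal of 3.59.

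Pcdhg was occupied along nearly its whole array, and its highest values lay towards the 3′ end. After Pcdhgc3, the strongest was Pcdhgb6 (37742094 to 37841873), with 51.0 in replicate 1 and 43.0 in replicate 2 (47.0 ± 5.66, SD, n = 2) and a pooled signal of 93.0. Pcdhgb7 had 54.1 and 32.6 (43.4 ± 15.2, SD, n = 2) with a pooled signal of 87.9. Pcdhga12 had 39.3 and 26.3 with a pooled signal of 65.8. The range of Pcdhgb7 covered both values of Pcdhgb6 and overlapped with that of Pcdhga12, whereas Pcdhgb6 was above Pcdhga12 in both replicates. Pcdhga3, near the 5′ end of the array, had a pooled signal of 52.5. The weakest were Pcdhgb2, with 13.7 and 13.4 and a pooled signal of 27.3, and Pcdhga5, with 9.37 and 15.7 and a pooled signal of 24.9. Pcdhga9, Pcdhgc4 and Pcdhgc5 were the 3 Pcdhg members without an optimal peak. Pcdhga9 lay between occupied neighbours and had 11.9 in replicate 1, 8.37 in replicate 2 and 18.1 in the pooled list. Under the list called conservative, for which both libraries were likewise used, Pcdhga9 counted as occupied.

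**Figure D2:**
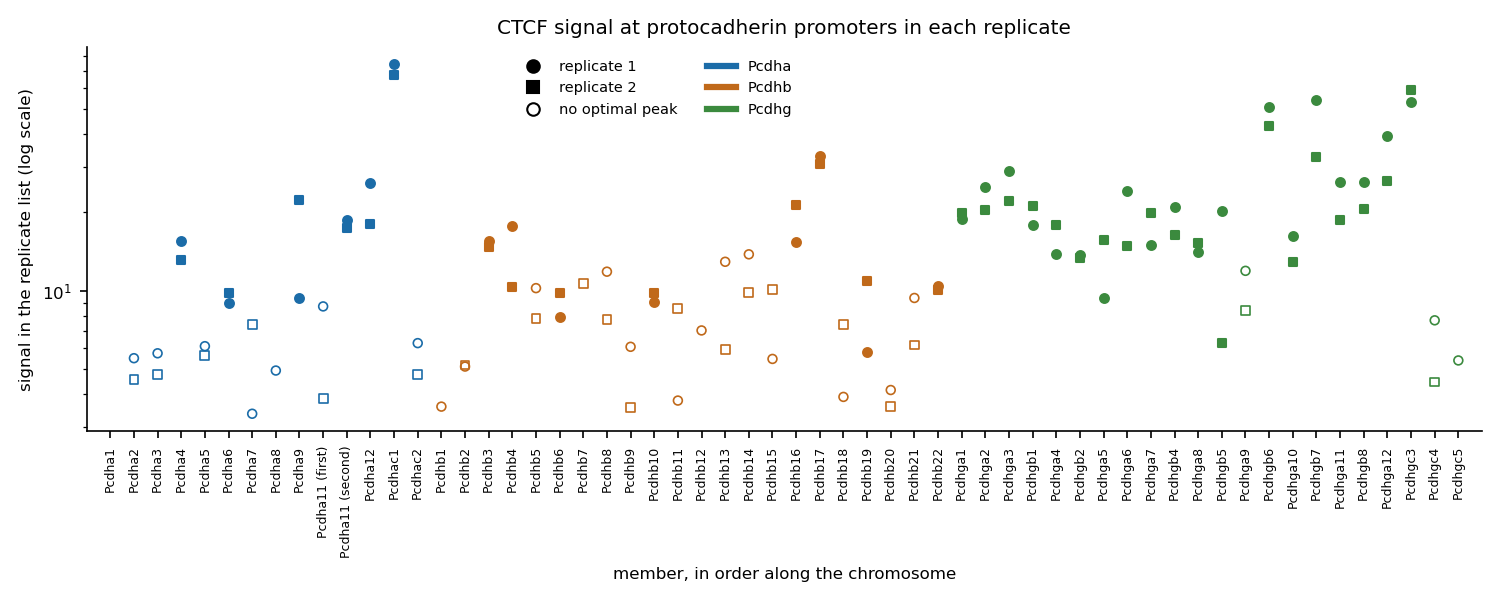
Signal in replicate 1 (circles) and replicate 2 (squares), on a log axis, for each of the 58 members in their order along the chromosome. Filled symbols mark the strongest optimal peak within 1 kb of a TSS, which is inside the variable exon at Pcdha4 and Pcdha12. Open symbols mark the strongest summit within 1 kb of a TSS in the replicate's full list where there was no optimal peak. Pcdhac1 and Pcdhgc3 are the highest of Pcdha and Pcdhg on pooled signal, and the Pcdhg members (green) are filled almost without a gap.

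The replicates differed at these weak peaks about as much as they did elsewhere. Over 35 peaks at member promoters with a value in both replicates, the log2 ratio of replicate 1 to replicate 2, scaled by each replicate's median, ran from -1.32 to 1.62 with an SD of 0.53. The SD was 0.56 over 34857 optimal peaks of the same range of signal. The most uneven members were Pcdhgb5, with 20.3 and 6.28, and Pcdha9. Over the 33 occupied members log2 signal in the replicates was correlated with rho = 0.711 (Spearman) and r = 0.781 (Pearson); this describes members that share the same libraries, and the peaks were selected from both.

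The summits of Pcdhb and Pcdhg stood at nearly the same place in front of each occupied member. The strongest summits of Pcdha were spread more widely, since some lay inside the variable exon. The distance was taken from the start codon, since the annotated length of the 5′ untranslated region differs among members. At 31 of 33 occupied members the strongest summit was upstream of the start codon. The median was -236 bp, with quartiles of -245 and -213, against a median of -283 and quartiles of -1451 and 398.5 at other occupied protein-coding genes. In Pcdhb the median was -239.5 bp (range -246 to -199) and in Pcdhg it was -241 bp (range -258 to -172). In Pcdha the median was -136.5 bp (range -213 to 502), with the strongest summit inside the variable exon at Pcdha4 and Pcdha12. The optimal summits upstream of the start codon in Pcdha, with that of Pcdha12 at -172 bp included, lay between -213 and -102 bp. The summits of Pcdhac1 and Pcdhgc3 were at -171 and -216 bp. In relation to the first TSS, the median was -52 bp for members and 162 bp for other genes.

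In Pcdhb, members without an optimal peak mostly had a weak summit at the same place in the full pooled list. Of 14 unoccupied Pcdhb members, 13 had a pooled summit 100 to 300 bp upstream of the start codon, between -271 and -159 bp, and 11 of the 13 had one in both replicate lists. Their pooled signals ran from 8.08 at Pcdhb20 to 21.1 at Pcdhb8, with a median of 15.1, so the highest overlapped with the weakest optimal peaks of the cluster. Pcdhb14 had 19.2 and Pcdhb5 18.4, and both counted as occupied under the conservative list. Of 8 unoccupied Pcdha members, 5 had such a summit, with signals of 8.38 to 12.7, and at 2 of the 5 it was in both replicate lists. Of 3 unoccupied Pcdhg members, Pcdhga9 and Pcdhgc4 had one, which at 1 of the 2 was in both replicate lists. Counting occupied and unoccupied members together, 21 of 22 in Pcdhb, 21 of 22 in Pcdhg and 11 of 14 in Pcdha had a pooled summit in that interval, against 12.1% of other protein-coding genes. The interval was chosen after the values had been seen. Pcdhb1, one of the members known to lack the promoter element, was the Pcdhb member with none. Pcdhgc5, also known to lack it, had none either. Pcdhac2 and Pcdhgc4 are known to lack it too, but are among those counted with a summit there. Their summits had pooled signals of 9.33 and 9.38 and no motif. That of Pcdhac2 was in both replicate lists and that of Pcdhgc4 in replicate 1 alone.

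Some Pcdha members had a second summit inside the variable exon, at most of them a weak one. Pcdha3, Pcdha4, Pcdha5, Pcdha6, Pcdha7, Pcdha8, Pcdha9 and Pcdha12 each had a pooled summit 421 to 513 bp downstream of the start codon. At Pcdha4, Pcdha6 and Pcdha12 the summit was also an optimal peak, with pooled signals of 29.7, 17.3 and 45.6. At Pcdha12 the exon summit, at 502 bp, was higher than the promoter summit at -172 bp, which had 33.9. At Pcdha6 the exon summit, at 440 bp, and the promoter summit, with 18.6, had like signals. Of the members, 8 of 14 in Pcdha, 4 of 22 in Pcdhg and 0 of 22 in Pcdhb had a pooled summit 300 to 600 bp downstream, against 12.2% of other protein-coding genes. The interval was chosen after the values had been seen. The other 5 Pcdha summits had pooled signals of 6.46 at Pcdha5 to 10.9 at Pcdha7, and those at Pcdha3, Pcdha5, Pcdha8 and Pcdha9 were in a single replicate list. The 4 Pcdhg summits lay between 302 and 447 bp, had like signals of 5.90 at Pcdhga6 to 9.44 at Pcdhgc4 and no CTCF motif, and were not optimal peaks. Outside the interval, Pcdhga11 had an exon summit at 240 bp with a pooled signal of 12.3 and a forward motif. It was in both replicate lists, was not an optimal peak and was stronger than those other 5 Pcdha summits. Neither Pcdhac1 nor the Pcdha11 entry at 37010712 had an exon summit in the interval.

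**Figure D3:**
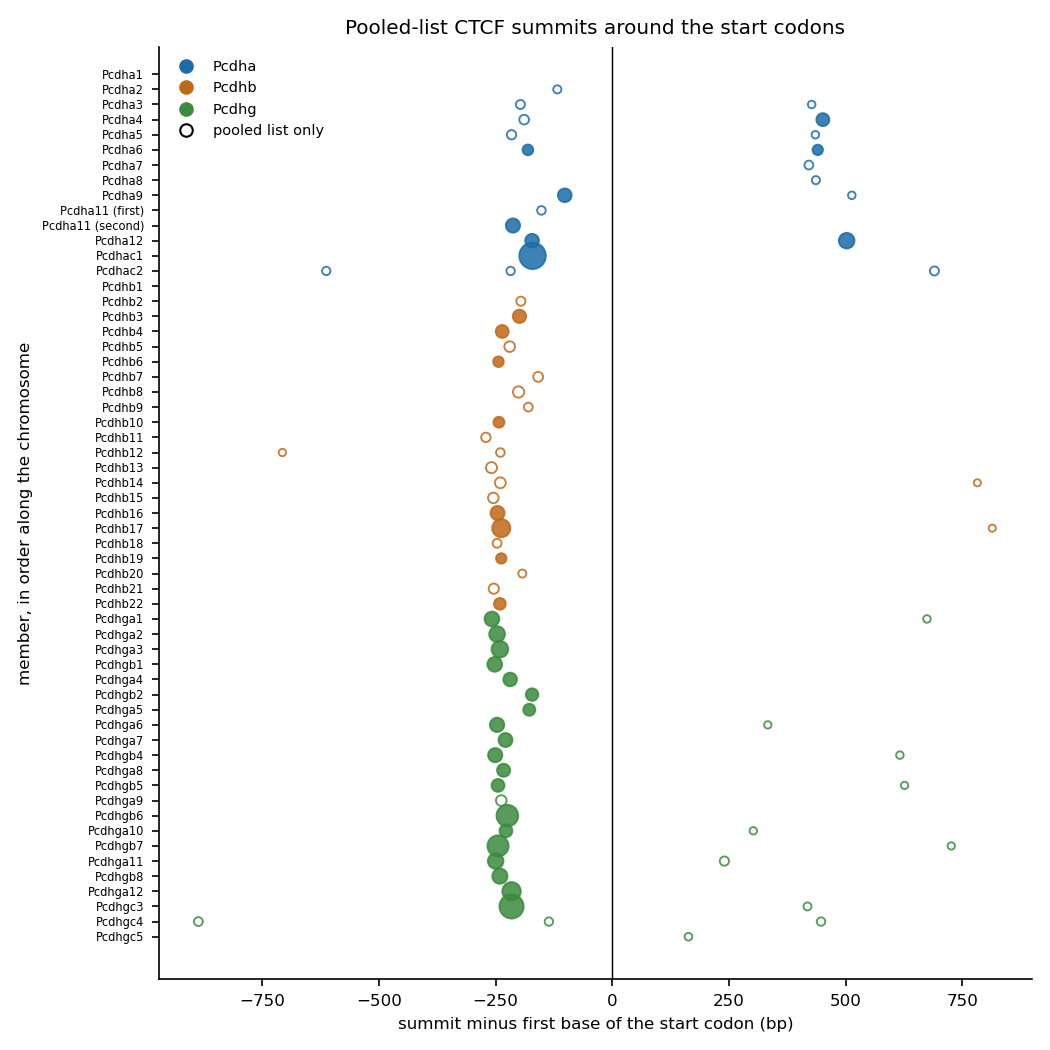
Distance in bp from the first base of the start codon to each pooled-list summit within 1 kb, for each member in chromosomal order; the area of a circle grows with pooled signal, filled circles are optimal peaks and open circles are in the pooled list alone. A column of summits runs through all 3 clusters around the median of -236 bp, and a second one at 421 to 513 bp is seen in Pcdha, where 3 of its 8 circles are filled.

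CTCF motifs at the promoter peaks pointed the same way in all cases. A motif was called where the whole best match to a CTCF matrix lay no more than 50 bp from the summit, with a score that only 5% of windows 1 kb to the side attain. This held at 83.7% of all optimal peaks. A motif was present at 6 of 6 occupied Pcdha members and 8 of 8 occupied Pcdhb members, but at 4 of 19 in Pcdhg, where it was at Pcdhga3, Pcdhgb1, Pcdhga7 and Pcdhgb5. All 18 were on the forward strand, the direction in which every member is transcribed. At 4962 other protein-coding genes with a motif at the promoter peak, 54.2% had it in the direction of the gene. Of the 8 pooled summits in Pcdha variable exons, 7 had a motif and all 7 were forward. Those at Pcdha4 and Pcdha12 are already among the 18. No reverse motif was found at a member promoter. At the score that 1% of the flanking windows attain, 9 forward motifs were called at all peaks among the variable exons and Pcdhb genes, against 20 at the score used here. None of the 4 Pcdhg motifs was called at that stricter score. With motif centres allowed within 100 bp of the summit, chosen after seeing the data, only Pcdhga3 of the 4 kept its motif. Pcdhga12 then gained a forward one scoring 14.2.

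The strength of the motif and the strength of the peak did not follow the same order among the clusters. The window from 500 bp upstream to 100 bp downstream of the start codon was scored in all 58 members whether or not they had a peak. The median of the best score, in bits, was 11.7 in Pcdhb, 11.5 in Pcdha and 4.16 in Pcdhg, against 4.51 in other protein-coding genes. The best position was forward and 100 to 300 bp upstream in 21 of 22 Pcdhb members, 13 of 14 Pcdha members and 11 of 22 Pcdhg members, against 18.4% of other protein-coding genes. That interval too was chosen after the values had been seen. Pcdhg therefore combined the most occupied promoters with the lowest scores, and Pcdhb high scores with weak peaks. Pcdha3, with the highest score of any member (14.8), had no optimal peak, and Pcdhgb4, with the lowest (-0.10), had a pooled signal of 36.8. Over the 56 members with a pooled summit within 1 kb, the score and the strongest signal were correlated with rho = -0.329 (Spearman) and r = -0.261 (Pearson); the members share libraries and related sequence, and they fall into clusters.

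**Figure D4:**
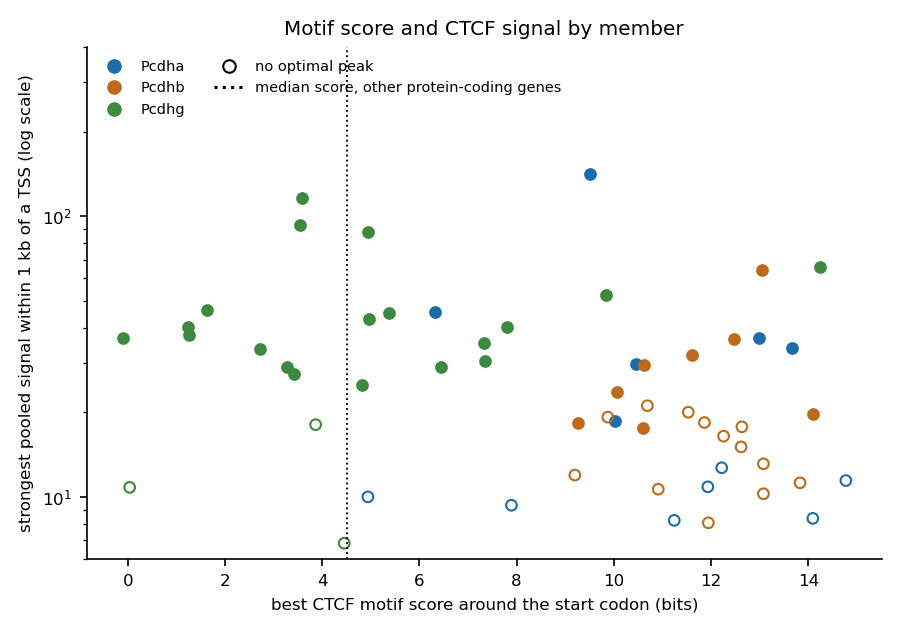
Strongest pooled signal within 1 kb of a TSS (log axis) against the best CTCF motif score from 500 bp upstream to 100 bp downstream of the start codon, in bits, for 56 members; filled circles have an optimal peak and the dotted line is the median score of other protein-coding genes, 4.51. Pcdhb (orange) and most of Pcdha (blue) lie to the right, around their medians of 11.7 and 11.5, and most of Pcdhg (green) to the left.

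How many starts carry a called motif depended on the setting. At the score that 5% of like windows upstream reach, 12 of 58 members (20.7%) had a motif in the start window, against 5.51% of other protein-coding genes. These were 7 of Pcdhb, 4 of Pcdha and 1 of Pcdhg, all forward. Of the 12, 7 had no optimal peak, among them Pcdha2, Pcdha3, Pcdhb7 and Pcdhb18. With the window extended to 1000 bp upstream, 5 of 58 members had one, against 5.90% of other genes, and at the score that 1% of like windows reach, 0 of 58 did, against 1.33%. The excess was thus small or absent under both.

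Sequence shared among members was too little to cover most promoters. Of all 36-base words in the start window, the median share that recurred elsewhere in the window around the clusters was 0. The highest shares were 10.6% at Pcdhgb6 and Pcdhgb7 and 10.2% at Pcdhgb4 and Pcdhgb5. Around the summit, 22.3% of words at Pcdhgb6 and 21.1% at Pcdhgb7 recurred. These 2 members also had the highest signals of Pcdhg after Pcdhgc3; the authors' handling of reads that fit more than 1 place is unknown, and its part in the signal was not tested.

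Many sites downstream of the clusters were stronger than those at the promoters, though not all of them. Between the last Pcdha variable exon and Pcdhb1 there were 2 optimal peaks, 950 bp apart and 29825 and 30775 bp past the end of the Pcdha constant exons. The first (summit 37217486) had 34.9 in replicate 1 and 40.4 in replicate 2, with a pooled signal of 73.7, which is below those of Pcdhac1, Pcdhgc3, Pcdhgb6 and Pcdhgb7. The second (summit 37218436, peak 37218340 to 37218522) had 94.3 and 83.7 (89.0 ± 7.48, SD, n = 2), with a pooled signal of 178.8. Both replicates of the second peak exceeded those of every member promoter. Both motifs were reverse, opposite to the 8 forward motifs at the 8 peaks among the Pcdha variable exons. The strongest peaks of replicate 1 alone, without replicate 2, held 5 peaks in place of those 8. An enhancer of Pcdha is known to lie downstream of its constant exons in mouse, but the annotation used here does not mark it, and the peaks were not matched to it.

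Downstream of Pcdhg, 9 optimal peaks had a median pooled signal of 236.4 (range 69.0 to 375.9), against 37.6 for the 21 peaks among the Pcdhg variable exons (18.8 to 116.4). All 9 lay above the median of all optimal peaks, but the weakest, with 73.0 and 69.0, were below the promoter peaks of Pcdhac1, Pcdhgc3, Pcdhgb6 and Pcdhgb7. The nearest one (summit 37852315, peak 37852158 to 37852485), 10442 bp past the end of Pcdhg, had 203.6 in replicate 1 and 174.6 in replicate 2 (189.1 ± 20.5, SD, n = 2). Its pooled signal of 375.9 placed it in the strongest 0.941% of optimal peaks. It lies in Diaph1, a gene for a formin that assembles actin filaments, as do the next 5 peaks. These had pooled signals of 207.8 (summit 37877515), 236.4 (37880414), 292.8 (37883649), 73.0 (37887180) and 144.1 (37908254). The peak at 37935660, 184 bp upstream of the Diaph1 TSS, had 160.3 and 145.2 with a pooled signal of 302.4. Farther on, a peak in Rell2 (37956380) had 69.0 and one in Arap3 (37984485) had 253.9. Arap3 codes for a GTPase-activating protein. Within the 9 peaks, the values at 37852315 exceeded those of the other 8 in both replicates.

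The direction of the motifs downstream of Pcdhg depended on the distance allowed from the summit. Of the 9 peaks, 3 had a forward motif, 3 a reverse motif and 3 none. The strongest, at 37852315, had none by the rule used, because its match reached past the 50 bp limit. With the centre of the motif allowed within 50 bp, a setting chosen after seeing the data, a reverse motif scoring 18.6 lay 45 bp to the left of that summit. With centres allowed within 100 bp, also chosen after seeing the data, the best match at 37883649 was a reverse one scoring 19.0 in place of a forward one scoring 17.0, and 37908254 had none. The peak in Arap3 then held the single forward motif against 7 reverse ones, the Pcdha pair included. The peak at 37880414 had no motif under any of these settings. A further peak (summit 37841482), in the last constant exon shared by all 22 Pcdhg members, had a pooled signal of 64.2 and a reverse motif. Among the Pcdhg variable exons, 19 of the 21 peaks were at member promoters. The others were a peak at 37772148, with a pooled signal of 18.8 and the zone's single reverse motif, listed in replicate 2 alone, and a peak at 37808970 with 36.5.

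Between Pcdhb and Pcdhg, 2 optimal peaks had pooled signals of 28.0, at the Taf7 promoter, and 36.3. Upstream of Pcdha1, 5 peaks lay near or in Tmco6, Hars, Hars2 and Zmat2, with pooled signals of 20.8 to 116.3. The strongest of them (summit 36739985) had 56.8 and 62.5 and a reverse motif. Of the 12 strongest peaks of the window, 7 were downstream of Pcdhg, 1 was the second peak downstream of the Pcdha variable exons, 2 were upstream of Pcdha and 2 were at member promoters, those of Pcdhac1 and Pcdhgc3. The other one upstream of Pcdha (summit 36803024) had 42.6 and 55.9, with a pooled signal of 99.6 and a reverse motif.

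Other protocadherin genes, which stand outside the clusters, were occupied in 8 of 12 cases (66.7%), with a median pooled signal of 52.1. The share was 56.9% among clustered members and 33.3% among other protein-coding genes. The strongest of the 12 was Pcdh1, with 204.8 in replicate 1 and 186.2 in replicate 2 and a pooled signal of 389.8, followed by Pcdh18 with 68.4 and Pcdh9 with 63.7. No clustered member reached the value of Pcdh1. The Hox genes, some of which pattern the limb, were occupied in 7 of 39 cases with a median of 228.0. That value is of a single peak counted for both Hoxc10 and Hoxc5. Keratin genes were occupied in 2 of 49 cases with a median of 20.2. Of 16 other protein-coding genes in the window, 6 were occupied, with a median of 73.5.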

How the data were processed

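The labels describe CTCF ChIP-seq of 2 limb libraries. Each deposited list gives a signal per peak, which the authors computed. Per the deposited notes, the optimal and conservative lists derive from both replicate lists and the pooled list. The sources used here name no aligner, peak caller, threshold or read depth, so no counting interval was possible.

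Summits were placed on mm10 (GRCm38.p6 sequence) and GENCODE M21 genes with Python 3.11.15, numpy 2.4.6, pandas 2.3.3 and scipy 1.17.1. A promoter counted as occupied with an optimal summit at most 1 kb from a TSS. The CTCF matrix, 20 bases wide, was refined in 10 rounds on 1000 strong peaks of the odd-numbered autosomes, which leave out chromosome 18, and checked on simulated data. Pooled-list summits within 1 kb of a start codon were also listed.

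Members, lists and zones were chosen with earlier results of these data known. By rule, the text names the c-type isoforms, the 4 strongest and 2 weakest occupied members and all unoccupied members of each cluster, the 12 strongest peaks of the window, the peaks downstream of Pcdha and Pcdhg, and the 3 strongest nonclustered protocadherins. Others, named for a count or a contrast, were chosen after their values were seen. No sequence of this region is printed.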

Additional observations from a re-analysis of the deposited data

How the results depend on the processing

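Occupied counts stayed within 1.5 times under the conservative list (32 members, 29 of them shared), either replicate alone (31 without replicate 1, 30 without replicate 2) and the other promoter definitions (32 at 500 bp, 37 at 5 kb), but the share of other genes was 26.8% at 500 bp and 52.0% at 5 kb. The members behind these counts changed more than the totals. Without replicate 1, 29 were shared, 4 lost and 2 gained. Without replicate 2, 26 were shared, 7 lost and 4 gained. The 7 lost included Pcdhb6, Pcdhb10, Pcdhb19 and Pcdhb22, and those gained were Pcdhb8, Pcdhb13, Pcdhb14 and Pcdhga9. Which Pcdhb members counted as occupied thus depended on the replicate. The conservative list added Pcdhb5, Pcdhb14 and Pcdhga9 and left out Pcdha9, Pcdhb19, Pcdhga5 and Pcdhgb5. Counting only the first TSS of each gene left 33 members occupied, against 25.98% of other genes. With the strongest 50% of optimal peaks, 6 members were occupied: 1 in Pcdha, 1 in Pcdhb and 4 in Pcdhg. With 17.2% of other genes occupied, the excess of members turned into a deficit. Their median signals were 90.5 for all 6, 142 in Pcdha, 64.0 in Pcdhb and 90.5 in Pcdhg. The zones then held 1, 1 and 4 peaks, with 2 forward and 0 reverse motifs. The Pcdhb median was 23.6 with the conservative list and 29.4 at 5 kb, where the Pcdhg median was 43.3. The conservative list left 0 reverse motifs among variable exons. Using 1 replicate alone, scaled to the median of the optimal list, the medians ran from 36.4 to 42.5 in Pcdha, 21.7 to 29.3 in Pcdhb, 39.9 to 40.0 in Pcdhg and 121 to 127 in the c-type isoforms. The Pcdha zone held 5 peaks without replicate 2 and 7 without replicate 1, and the reverse motifs numbered 0 to 1. At the stricter motif score, 9 forward motifs were called among the variable exons and Pcdhb peaks, and start-window motifs numbered 0, or 5 in the wider window, with 1.33% and 5.90% of other genes. With motif centres within 100 bp, chosen after seeing the data, forward motifs downstream numbered 1 and reverse ones 7. No paired analysis was possible because both libraries belong to 1 group. Causes were not tested. Unknown depth limits statements about unoccupied members.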
